A study of Macaca mulatta with 11 samples.

Results

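The genes described here are 10 genes of the osteoblast lineage, RUNX2, ALPL, SPP1, IBSP, BGLAP, SPARC, MSX2, DLX5, TNFRSF11B and PTH1R, chosen by name. Every one had at least 1 probe set whose platform symbol was, or included, the gene, which gave 16 of the 22215 probe sets in the data. The probe sets with a single symbol covered 11963 genes in all. A probe set is a group of short oligonucleotides that reports 1 transcript or a few. Of the 16, 15 carried a single symbol. The BGLAP probe set (206956_at) also carries PMF1 and the joined PMF1-BGLAP transcript, so its signal cannot be credited to BGLAP alone.

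Osteoblasts arise from mesenchymal progenitors, and bone marrow stromal cells in culture hold such progenitors. RUNX2 is the transcription factor that commits cells to the lineage, the homeobox factors DLX5 and MSX2 act beside it, and the cells then make alkaline phosphatase, matrix proteins and at the end osteocalcin. Osteoblasts also receive parathyroid hormone through PTH1R and restrain osteoclasts through the decoy receptor osteoprotegerin.

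Marrow-derived mesenchymal stem cells, the adherent cells of marrow, were grown from rhesus monkeys (Macaca mulatta) without any treatment to induce bone formation named in the labels, and 1 oligonucleotide array annotated with human genes was hybridised per culture. The fetal group held 4 arrays, of which arrays 1 and 2 were from gestation day 120 and arrays 3 and 4 from newborn animals despite their title. The infant group held 4 arrays, from animals of 6, 6, 3 and 5 months for arrays 1 to 4, and the adult group held 3, from animals of 7, 7 and 8 years. All cultures were collected below confluence at the second passage in medium with fetal bovine serum. Marrow of fetal and newborn animals was flushed from long bones and that of infants and adults was aspirated, so for comparisons with the fetal group age and collection cannot be told apart. The labels do not say that each culture came from a different animal, so p-values measure the spread between cultures, which may be technical.

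Deposited intensities were on a linear scale after RMA. Median intensity lay between 164.9 and 169.6 on the arrays, the lowest value was 75.3, and the number of arrays limits the precision. XIST, an RNA of the inactive X chromosome, read 11.23 on the log2 scale in adult array 3 and 7.27 to 8.40 on the other arrays, and the Y-linked RPS4Y1 read 7.81 there and 11.30 to 12.16 elsewhere. The antibody light chain gene IGLC1 read 12.82 and 13.23 in adult arrays 1 and 2, 9.10 in adult array 3 and at most 8.30 in infant and fetal arrays. The part of either difference in the results on the osteoblast genes was not tested, and results without these arrays are given in the closing section. In bulk RNA, fewer cells of a type and less RNA per cell cannot be told apart.

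SPARC was the only gene of the 10 with a bright signal. SPARC encodes osteonectin, a collagen-binding glycoprotein of bone that fibroblasts and many other mesenchymal cells also make. Its probe set 200665_s_at was brighter than 99.0% of all probe sets by mean log2 intensity, and its probe set 212667_at lay at percentile 79.8. The other 14 probe sets lay between percentiles 3.38 and 60.1, and 10 of the 16 lay below the median of all probe sets. Human probes read monkey RNA here, so a dim probe set can reflect a poor match as well as a low level, and no detection call was used.

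**Figure D1:**
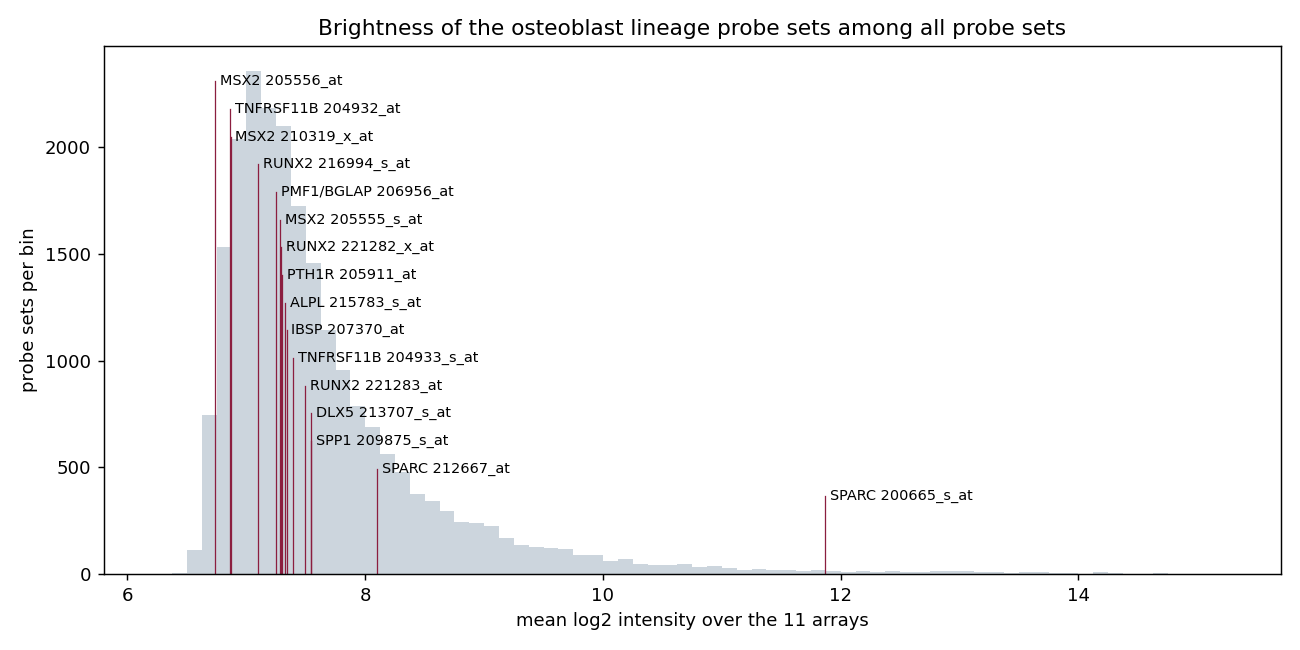
Histogram of mean log2 intensity over the 11 arrays for all 22215 probe sets (grey bars, number of probe sets per bin), with a red line at the mean of each of the 16 osteoblast lineage probe sets; line height only separates the labels. SPARC 200665_s_at stands at 11.87 and SPARC 212667_at at 8.10, and the other lines lie within the main peak, between 6.74 and 7.54.

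Among the matrix proteins, SPARC 200665_s_at read 3245, 3569, 3220 and 4546 in fetal arrays, 3177, 3896, 3209 and 3950 in infant arrays, and 5087, 4053 and 3749 in adult arrays. Adult array 1 was the highest of the 11 and the 3 groups overlapped. The adult mean of 12.06 ± 0.23 on the log2 scale (SD, n = 3) stood beside 11.82 ± 0.23 in fetal arrays (SD, n = 4), a difference of 0.24 (95% interval -0.08 to 0.55). This was not significant in limma, a linear model fitted over all probe sets with a Benjamini-Hochberg adjustment (adjusted p = 0.684). Against infant arrays, at 11.79 ± 0.17 (SD, n = 4), the adult difference was 0.27 (95% interval -0.05 to 0.58, limma adjusted p = 0.819). Both differences leaned on adult array 1: without it they were 0.11 against fetal and 0.14 against infant arrays. Without adult arrays 1 and 2, which left 1 adult array, they were 0.055 and 0.083. SPARC 212667_at read 260, 250, 217 and 296 in fetal arrays, 287, 285, 291 and 318 in infant arrays, and 321, 267 and 251 in adult arrays, and again the groups overlapped. It differed by 0.13 between adult and fetal arrays (limma adjusted p = 0.812; 0.029 without adult array 1 and 0.056 without fetal array 3, and 0.21 and 0.20 without adult array 3 and fetal array 4) and by 0.21 between infant and fetal arrays (limma adjusted p = 0.761).

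SPP1, which encodes the mineral-binding phosphoprotein osteopontin, varied more within groups than most genes. It read 167, 255, 190 and 141 in fetal arrays, 189, 190, 131 and 234 in infant arrays, and 189, 253 and 159 in adult arrays. High and low cultures occurred at every age, and the groups overlapped throughout. Its pooled within-group SD of 0.35 on the log2 scale was larger than that of 96.1% of all probe sets, whose median was 0.17. The adult and fetal means differed by 0.096 (95% interval -0.37 to 0.57, limma adjusted p = 0.946), so that a change of up to 1.48-fold in adult over fetal cultures lies inside the interval on this scale.

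IBSP, bone sialoprotein, and BGLAP, osteocalcin, are late markers of bone-forming cells. IBSP lay between 136 and 194 over all arrays, with group means of 7.39 ± 0.15 in fetal (SD, n = 4), 7.32 ± 0.07 in infant (SD, n = 4) and 7.29 ± 0.17 in adult arrays (SD, n = 3). The shared PMF1 and BGLAP probe set lay between 120 and 205, with infant array 1 the highest and adult array 3 the lowest. Its adult and fetal means were 7.20 ± 0.35 (SD, n = 3) and 7.21 ± 0.09 (SD, n = 4). No age difference of either passed, with limma adjusted p of at least 0.847.

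ALPL encodes tissue-nonspecific alkaline phosphatase, which breaks down the mineralisation inhibitor pyrophosphate and serves as an early marker of osteoblasts. It read 141, 165, 171 and 159 in fetal arrays, 159, 145, 178 and 129 in infant arrays, and 207, 159 and 165 in adult arrays. Adult array 1 stood above the rest, while adult arrays 2 and 3 lay within the range of both younger groups. The adult-to-infant difference of 0.21 (95% interval -0.07 to 0.49) was its largest among the 3 age groups and was not significant (limma adjusted p = 0.847). It was 0.092 without adult array 1 and 0.13 without infant array 4.

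RUNX2 was read by 3 probe sets that did not point to 1 direction. Over the 11 arrays 216994_s_at lay between 115 and 162, 221282_x_at between 140 and 208 and 221283_at between 151 and 199.7. Their adult-to-fetal differences were -0.09, 0.20 and 0.03 on the log2 scale, and their adult-to-infant differences were -0.13, 0.12 and -0.12. None passed, with limma adjusted p between 0.739 and 0.965 for adult against fetal and between 0.889 and 0.921 for adult against infant. The high values of 221282_x_at came from adult array 1, at 208, and infant array 1, at 195, with the next at 161 in adult array 3. An _x_at name marks a probe set with probes that can also match other transcripts.

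**Figure D2:**
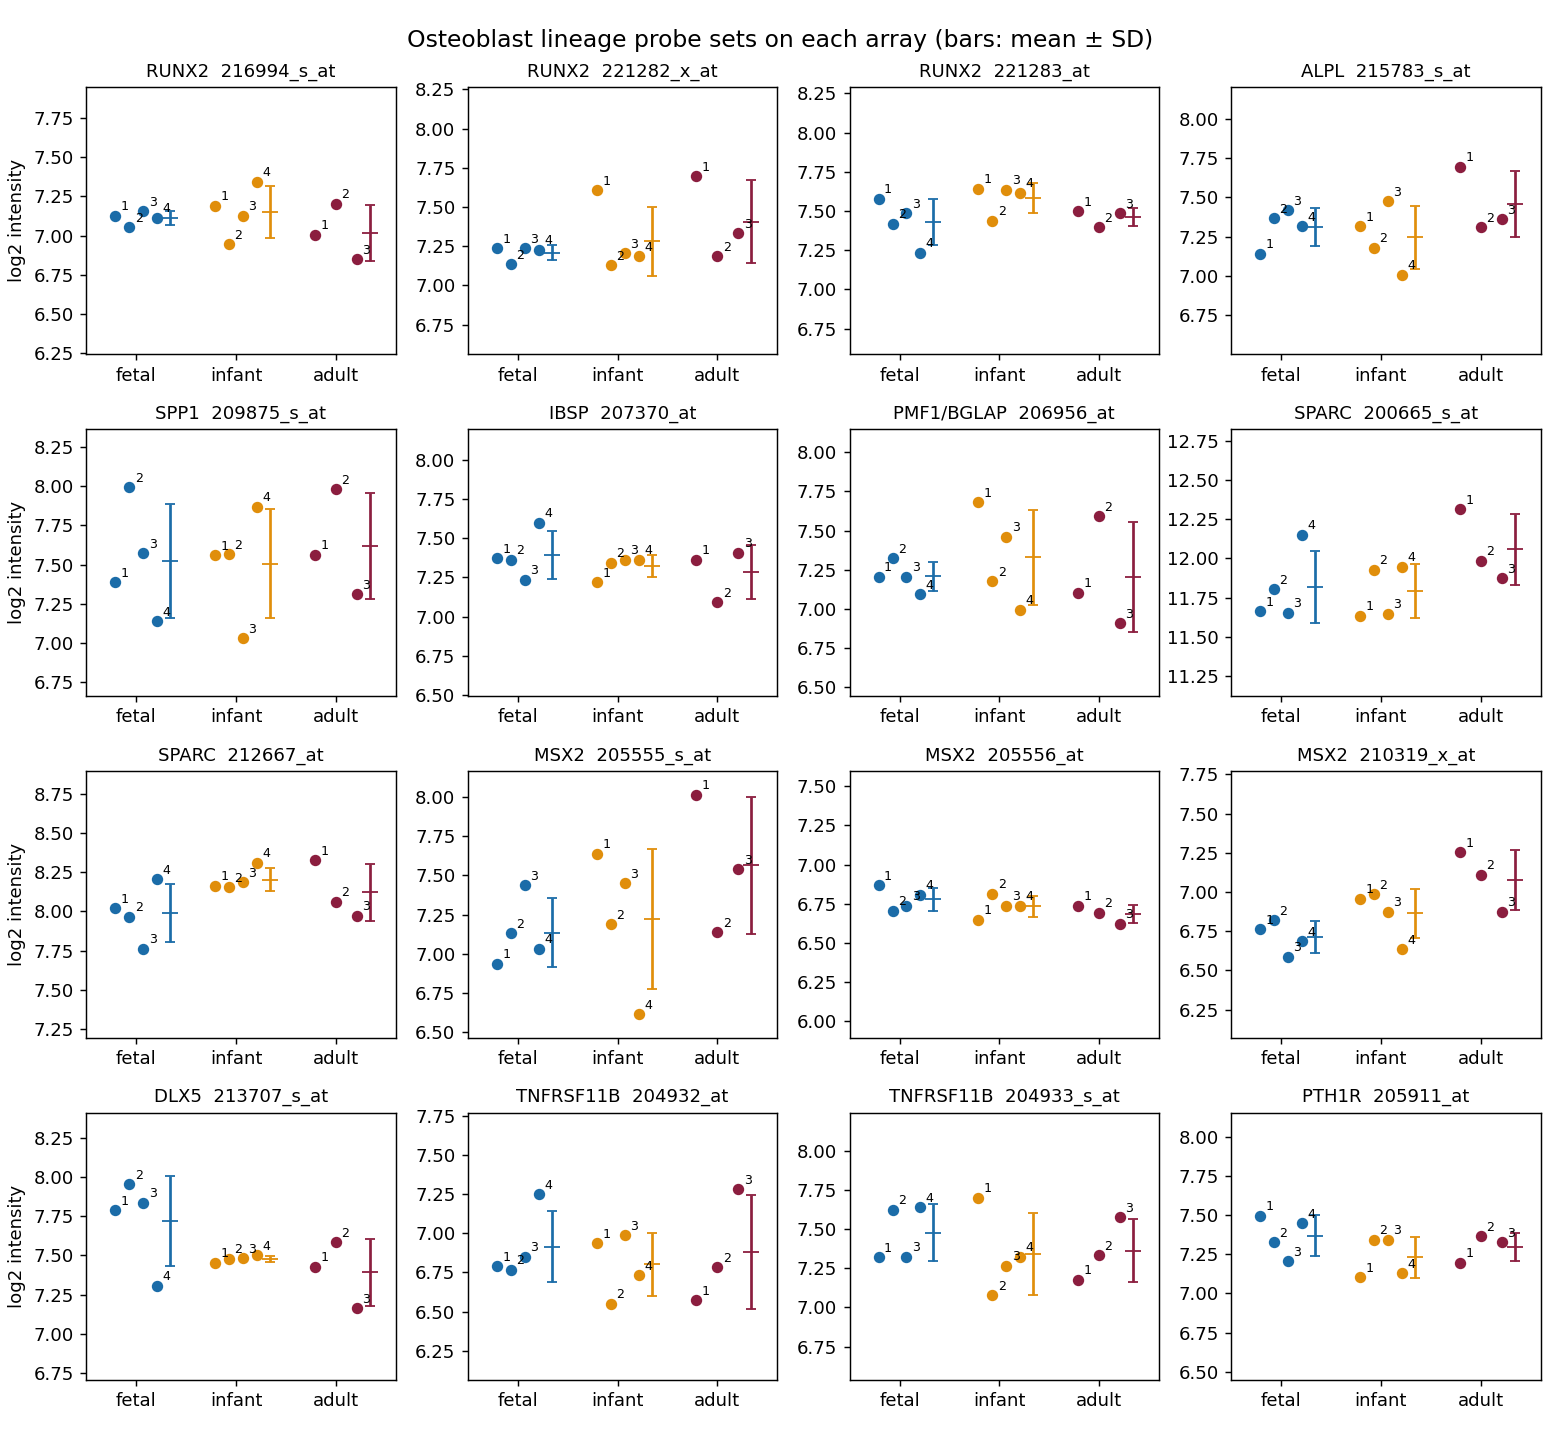
Log2 intensity of each osteoblast lineage probe set, with 1 point per array numbered by replicate, and the mean ± SD beside the points (fetal n = 4, infant n = 4, adult n = 3). Each panel spans the same number of log2 units, and the groups overlap in every panel for every pair of age groups except MSX2 210319_x_at, where the 3 adult points lie above the 4 fetal ones.

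DLX5, a homeobox factor that promotes osteoblast differentiation, read 221, 248, 228 and 158 in fetal arrays, 175, 178, 179 and 181 in infant arrays, and 172, 192 and 143 in adult arrays. Fetal arrays 1 to 3 lay above all infant and adult arrays, whereas fetal array 4, from a newborn, lay below all infant arrays and between adult arrays 1 and 3. The adult mean was 7.39 ± 0.21 (SD, n = 3) and the fetal mean 7.72 ± 0.29 (SD, n = 4), a difference of -0.33 on the log2 scale (SE 0.14, 95% interval -0.64 to -0.02). It did not pass over all probe sets (limma adjusted p = 0.513). Without fetal array 4 the difference was -0.47 (limma adjusted p = 0.127) and without adult array 3 it was -0.21 (limma adjusted p = 0.634). Without adult arrays 1 and 2, which left 1 adult array, it was -0.56. The infant mean of 7.48 ± 0.02 (SD, n = 4) differed by -0.24 from the fetal mean (95% interval -0.53 to 0.04, limma adjusted p = 0.773). Within the fetal group the newborn and gestation day 120 arrays differed by -0.30 (95% interval -0.69 to 0.09, 2 arrays each).

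MSX2, a homeobox repressor expressed in bone progenitors, was read by 3 probe sets. MSX2 210319_x_at read 108, 113, 96.2 and 103 in fetal arrays, 124, 127, 117 and 99.5 in infant arrays, and 152, 138 and 117 in adult arrays. All adult arrays lay above all fetal arrays, while infant arrays overlapped with both. The adult mean of 7.08 ± 0.19 (SD, n = 3) was 0.37 above the fetal mean of 6.71 ± 0.10 (SD, n = 4; SE 0.12, 95% interval 0.11 to 0.62), and this had the smallest p of the 16 but did not pass over all probe sets (limma adjusted p = 0.325). Without adult arrays 1 and 2, which left 1 adult array, the difference was 0.16. MSX2 205555_s_at read 122, 140, 173 and 131 in fetal arrays, 199, 146, 175 and 98.1 in infant arrays, and 259, 141 and 186 in adult arrays. It had the widest range of the 16, 1.40 log2 units between adult array 1 and infant array 4, and an adult-to-fetal difference of 0.43 (95% interval -0.07 to 0.93, limma adjusted p = 0.638), which was 0.20 without adult array 1. MSX2 205556_at stayed between 98.5 and 117, among the dimmest of all probe sets, and its adult-to-fetal difference was -0.10 (limma adjusted p = 0.817). The brighter of these probe sets lay at percentile 43.1 of brightness, so MSX2 rests on dim signals throughout.

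TNFRSF11B encodes osteoprotegerin, the soluble decoy receptor that binds the osteoclast factor RANKL, and PTH1R is the receptor for parathyroid hormone. TNFRSF11B 204932_at lay between 93.8 and 156, with adult array 3 and fetal array 4 the highest, and 204933_s_at lay between 135 and 208, with infant array 1 the highest. Their adult-to-fetal differences were -0.04 (95% interval -0.40 to 0.33) and -0.12 (95% interval -0.44 to 0.21). PTH1R lay between 137 and 181, with its adult-to-fetal difference at -0.07 (95% interval -0.31 to 0.16). No comparison of either gene passed, with limma adjusted p of at least 0.833 among the 3 age groups.

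In all, 0 of the 16 probe sets passed an adjusted p of 0.05 between adult and fetal arrays, where 0.131% of all probe sets passed. Likewise 0 passed between adult and infant arrays, beside 0.018% of all (0 of the 16 also with the replicate number as a block), and 0 between infant and fetal arrays, beside 0%. At an unadjusted p under 0.05 limma gave 2 of the 16 between adult and fetal arrays (MSX2 210319_x_at and DLX5), beside 8.96% of all, 0 between adult and infant arrays, beside 6.19%, and 0 between infant and fetal arrays, beside 6.87%. The test for any difference among the 3 ages passed 0 of them, beside 0.036% of all, and 1 at an unadjusted p under 0.05, beside 8.01%. Groups of arrays did not overlap for 1 of the 16 between adult and fetal arrays, beside 8.08% of all (4.41% with adult arrays higher and 3.66% with adult arrays lower). They overlapped for all 16 between adult and infant arrays, where 4.98% of all did not (3.18% higher and 1.8% lower in adult arrays), and between infant and fetal arrays, where 3.34% did not (1.21% higher and 2.13% lower in infant arrays). The counts of osteoblast probe sets past these thresholds were thus small, and with 16 probe sets a share near the background is not a result about them.

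**Figure D3:**
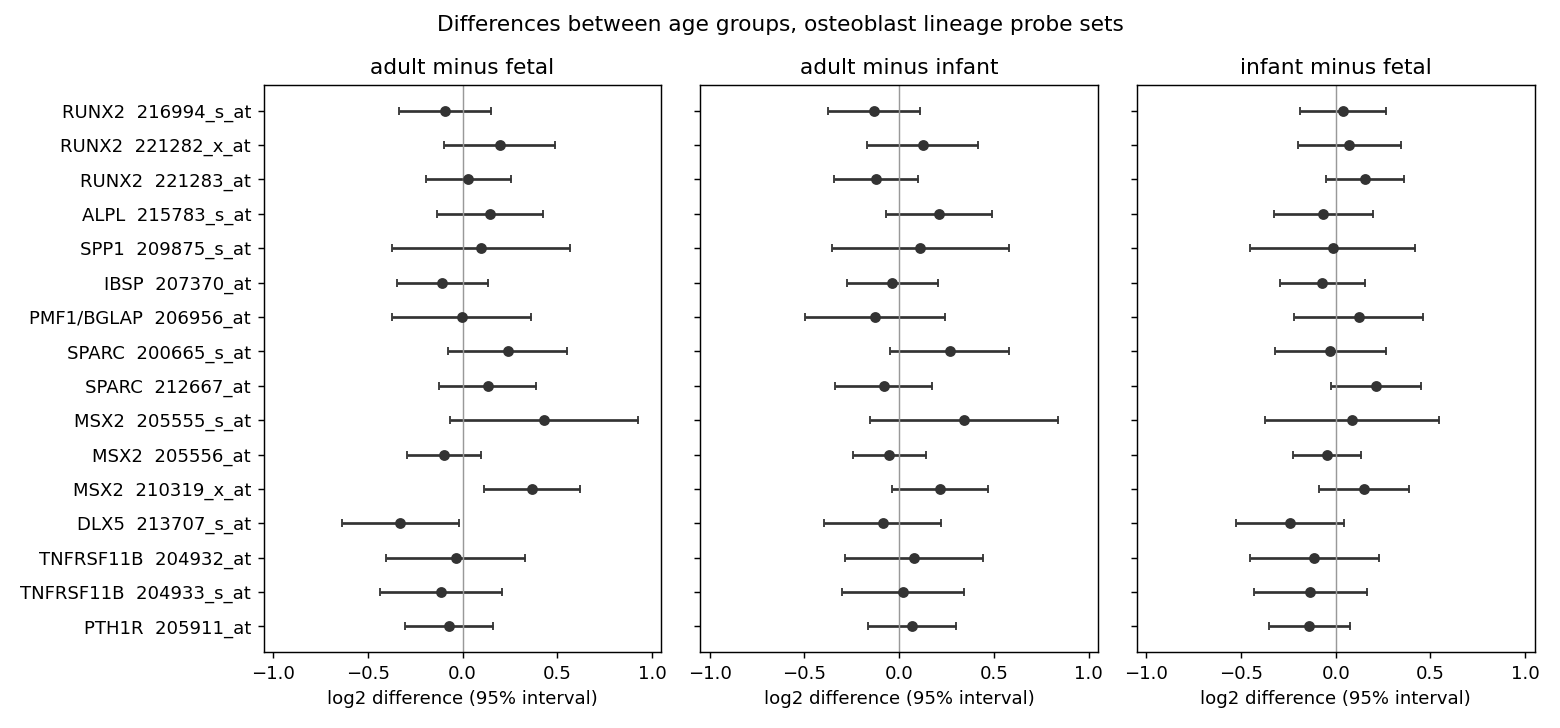
Log2 differences (x axis) with 95% intervals from limma for the 16 osteoblast lineage probe sets, for adult minus fetal, adult minus infant and infant minus fetal arrays. The intervals of MSX2 210319_x_at (0.11 to 0.62) and DLX5 (-0.64 to -0.02) between adult and fetal arrays lie to 1 side of 0, and all other intervals include 0.

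Between adult and fetal arrays 8 of the 16 were higher and 8 lower, with a median difference of 0.013, beside 52.5% higher and a median of 0.009 over all probe sets. The median size of the difference, whatever its sign, was 0.11 for the 16 and 0.10 for all probe sets. Every one of the 48 intervals among the 3 age groups lay within 1 log2 unit on either side of 0. That limit holds for the deposited scale, on which the lowest value was 75.3 and differences of dim probe sets are compressed. With the 1st percentile of each array subtracted before log2, the adult-to-fetal differences of the 16 ran from -0.70 for DLX5 to 1.13 for MSX2 210319_x_at, and again 0 passed.

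Newborn and gestation day 120 arrays, 2 each, did not differ in any of the 16 past the test (all limma adjusted p = 1.00), beside 0% of all probe sets called. The largest difference was -0.34 for SPP1 (95% interval -0.95 to 0.28). Arrays did not overlap for 2 of the 16, MSX2 210319_x_at and TNFRSF11B 204932_at, beside 28.8% of all, and 0 of the 16 had an unadjusted p under 0.05, beside 1.81%.

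Probe sets of 1 gene moved together only in part. Over the 11 arrays the TNFRSF11B pair had r = 0.69 (permutation p = 0.0195, adjusted over 8 pairs 0.156) and rho = 0.56 (permutation p = 0.0745, adjusted 0.249), and r was 0.57 without the 2 arrays farthest from the median. The SPARC pair had r = 0.57 (permutation p = 0.0701, adjusted 0.187) and rho = 0.47 (permutation p = 0.146, adjusted 0.249), and r was 0.31 without 2 arrays. MSX2 205555_s_at and 210319_x_at had r = 0.61 (permutation p = 0.0469, adjusted 0.187) and rho = 0.60 (permutation p = 0.0582, adjusted 0.249), which rested on 2 arrays, since r was 0.11 without them. For the 3 RUNX2 pairs r lay between -0.12 and 0.29, and for the other 2 MSX2 pairs it was -0.44 and -0.25, and the first of these was -0.76 without 2 arrays. No pair passed after adjustment. Adult array 1 held the highest value for 6 of the 16 probe sets, both of SPARC, 2 of MSX2, 1 of RUNX2 and ALPL, beside 8.70% of all probe sets, and the 6 share genes.

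The genes most alike in pattern to MSX2 210319_x_at over the 11 arrays were TNFSF15, CNN3, ALDH6A1, RAB14 and GNAQ, with r between 0.89 and 0.94. MSX2 210319_x_at was dim, at brightness percentile 10.3, as were TNFSF15 and ALDH6A1, at 0.455 and 3.26. CNN3, RAB14 and GNAQ were brighter, at 94.6, 76.7 and 86.6. The genes most alike to MSX2 205555_s_at were PDE3B, PTK2B, DYNLRB1, HGD and DNAJB6, with r between 0.88 and 0.94. These were the highest of all named probe sets and are given as a description, without a test. The genes named for the MSX2 probe sets were different.

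The wider bone programme was then read at 1 probe set per gene, the one with the highest mean. Of 16 measured genes of bone matrix and mineralisation, 0 passed in any comparison of age groups, and the median adult-to-fetal difference was -0.06, with 5 higher and 11 lower, beside 50.1% higher and a median of 0.00 over all genes. LOX, the lysyl oxidase that cross-links collagen, came closest, with a mean of 11.09 ± 0.50 in adult arrays (SD, n = 3) and 9.38 ± 0.28 in fetal arrays (SD, n = 4). Its difference of 1.71 (SE 0.33) did not pass (limma adjusted p = 0.0646). The 2 dimmer LOX probe sets gave 0.72 and 0.92. CDH11, the osteoblast cadherin, was 11.37 ± 0.09 in adult arrays (SD, n = 3) and 11.88 ± 0.15 in infant arrays (SD, n = 4), a difference of -0.51 (limma adjusted p = 0.397). BMP1, which processes procollagen, differed by 0.35 between adult and fetal arrays at its brightest probe set (limma adjusted p = 0.386) and by -0.02 to 0.42 at the other 3, and MGP, an inhibitor of calcification, by -0.37 between infant and fetal arrays (limma adjusted p = 0.617). COL1A1 and COL1A2, the type I collagen chains, were chosen after their values were seen. They lay with SPARC among the brightest 1% of probe sets, at adult means of 14.74 ± 0.16 and 14.54 ± 0.11 (SD, n = 3) and fetal means of 14.75 ± 0.29 and 14.25 ± 0.24 (SD, n = 4), and did not pass (limma adjusted p = 0.997 and 0.626).

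Of 15 measured osteoblast transcription factors other than RUNX2, DLX5 and MSX2, 0 passed in any comparison. The median adult-to-fetal difference was -0.09, with 6 higher and 9 lower. TWIST1, which restrains RUNX2, read 8.21 ± 0.18 in adult arrays (SD, n = 3) and 8.91 ± 0.14 in fetal arrays (SD, n = 4). The groups did not overlap, as for 8.08% of all probe sets. The TWIST1 difference of -0.70 (SE 0.17) did not pass (limma adjusted p = 0.161). FOSL1, an AP-1 subunit active in osteoblasts, read 8.36 ± 0.21 in adult arrays (SD, n = 3) and 8.90 ± 0.19 in fetal arrays (SD, n = 4; limma adjusted p = 0.208). FOSL2, a related subunit, differed by -0.84 between infant and fetal arrays (limma adjusted p = 0.535), while the dimmer FOSL2 probe sets gave -0.31 and -0.26. Between adult and infant arrays the zinc finger factor ZBTB16 and the C/EBP family factor CEBPD differed by 0.31 and -0.34 (limma adjusted p = 0.767 and 0.805), and the dimmer CEBPD probe set gave -0.14.

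Of 19 measured genes for signals to and from osteoblasts 0 passed, with a median adult-to-fetal difference of -0.01. DKK1, a secreted WNT antagonist, read 8.44 ± 0.13 in adult arrays (SD, n = 3) and 9.51 ± 0.51 in fetal arrays (SD, n = 4). These groups did not overlap, as for 8.08% of all probe sets, and differed by -1.07 (SE 0.37, limma adjusted p = 0.372). TGFB1 differed by -0.65 between adult and fetal arrays at its brighter probe set (limma adjusted p = 0.281) and by -0.04 at the other. IGF1, a growth factor for osteoblasts, differed by 0.51 between adult and infant arrays at its brightest probe set (limma adjusted p = 0.465). Another IGF1 probe set gave 1.06 (limma adjusted p = 0.375), and the remaining IGF1 probe sets gave 0.26 and 0.29. The FGF receptor FGFR1 differed by 0.30 at its brightest probe set (limma adjusted p = 0.787), and its other 5 gave -0.09 to 0.09. CSF1, the macrophage and osteoclast growth factor, had no settled direction between infant and fetal arrays: its brightest probe set gave -0.28 (limma adjusted p = 0.696), another 0.38 (limma adjusted p = 0.546), and the remaining ones -0.16 and 0.06. Of 5 measured osteocyte genes 0 passed. FGF23, the phosphate hormone of osteocytes, differed by 0.36 between adult and fetal arrays (limma adjusted p = 0.347), PHEX by -0.07 (limma adjusted p = 0.890), DMP1 by -0.24 between adult and infant arrays (limma adjusted p = 0.869; 0.06 at its dimmer probe set) and MEPE by -0.28 between infant and fetal arrays (limma adjusted p = 0.748).

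**Figure D4:**
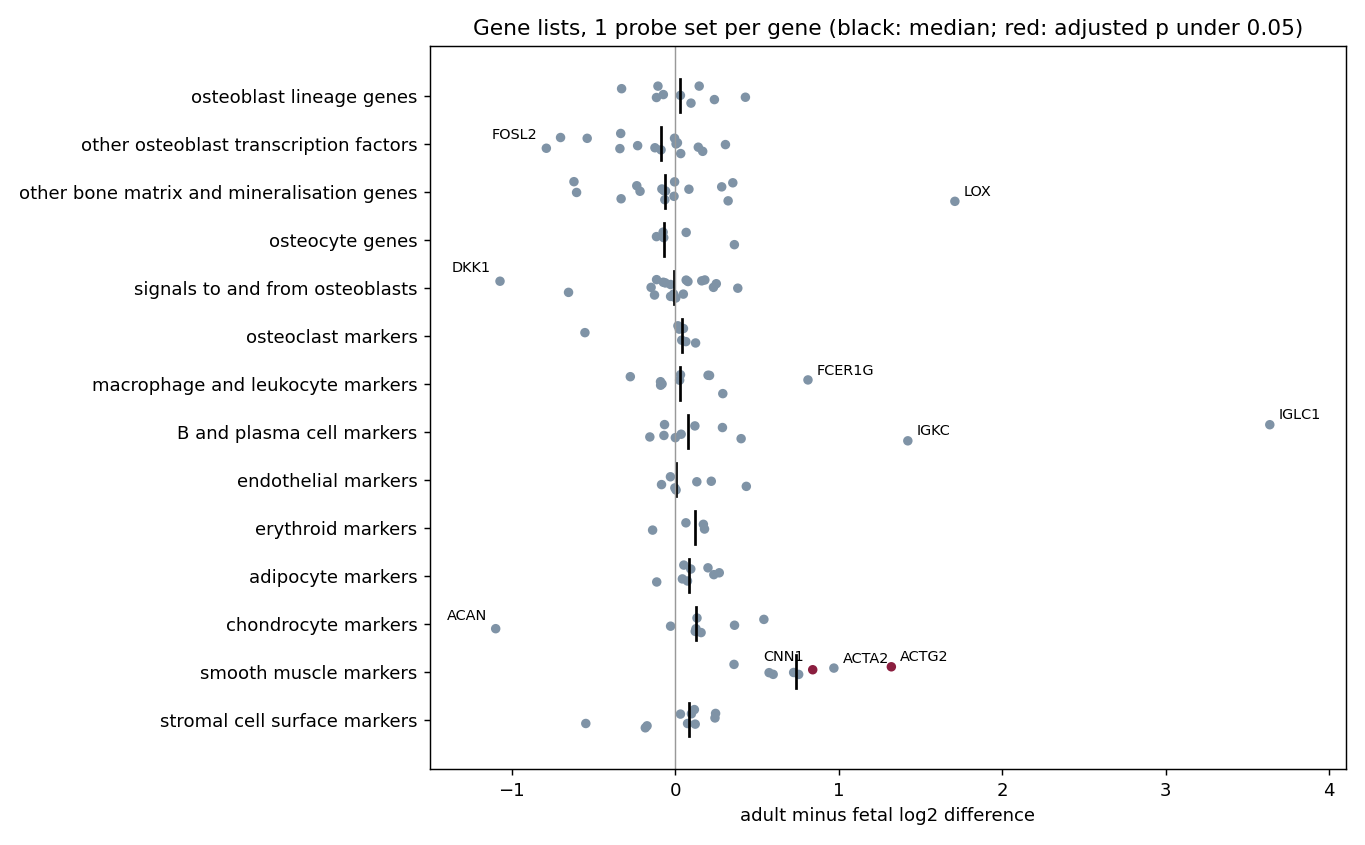
Adult minus fetal log2 difference (x axis) of each measured gene of the osteoblast lineage and of 13 other gene lists, at 1 probe set per gene, with the list median as a black line and genes past an adjusted p of 0.05 in red. BGLAP, which has no probe set with a single symbol, is not shown. The osteoblast lineage genes lie between -0.33 and 0.43, and only CNN1 and ACTG2 of the smooth muscle list are red.

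Markers of other cell types were read in the same arrays, and their part in the values above was not tested. Of 7 measured osteoclast markers 0 passed, and the median adult-to-fetal difference was 0.04. CTSK, the bone-degrading cathepsin that stromal cells also express, differed by -0.25 between adult and infant arrays (limma adjusted p = 0.858), and MMP9 by -0.55 between adult and fetal arrays (limma adjusted p = 0.564). Of 8 smooth muscle markers all 8 were higher in adult than in fetal arrays, with a median of 0.74. The actin ACTG2, at 9.77 ± 0.14 in adult (SD, n = 3) and 8.44 ± 0.44 in fetal arrays (SD, n = 4), and calponin, CNN1, at 8.91 ± 0.16 in adult (SD, n = 3) and 8.07 ± 0.08 in fetal arrays (SD, n = 4), rose (limma adjusted p = 0.0160 and 0.00815). All 8 were also higher in adult than in infant arrays, with a median of 0.27. There ACTG2 rose by 1.57 (limma adjusted p = 0.0106), while CNN1, at 0.61, did not pass (limma adjusted p = 0.146). Over the 10 B and plasma cell markers the mean deviation from each gene's average was 0.52 and 0.68 in adult arrays 1 and 2 and 0.03 in adult array 3, beside -0.25 to -0.12 in infant and fetal arrays. The median adult-to-fetal difference of these markers was only 0.08, with 7 higher and 3 lower. IGLC1 and IGKC differed by 3.64 and 1.42 at their brightest probe sets and did not pass (limma adjusted p = 0.0561 and 0.194). One IGHM probe set, for the antibody heavy chain, rose by 1.60 in adult over fetal arrays (limma adjusted p = 0.0389), while the other 4 differed by -0.07 to 0.84 and did not pass. Among the 10 stromal surface markers 0 passed, with CD44 at -0.55 between adult and fetal arrays at its brightest probe set (limma adjusted p = 0.132) and at -0.34 to 0.06 at the other 7.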

How the data were processed

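RNA from 11 cultures was hybridised to arrays after one-cycle biotin labelling, per the labels. The authors deposited intensities per probe set made with RMA, per the submitters' processing notes, with no version given. RMA includes a normalization between arrays, so differences in overall brightness were removed before deposit. Equal values on 2 or more arrays occurred in 9 of the 16 osteoblast probe sets and 58.5% of all. Log2 was taken of the deposited intensity, and no filter was used. There were 0 control probe sets.

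Groups were taken from the titles. The model was fitted with limma 3.58.1 (R 4.3.3; lmFit and eBayes, two-sided) to all 11 arrays, with a mean for each group, and with a mean per stage for newborn against gestation day 120, with Benjamini-Hochberg adjustment over 22215 probe sets. The 95% intervals are unadjusted. Symbols came from the platform annotation: 19065 probe sets had 1 symbol, 1043 several and 2107 none. Except for BGLAP, genes were read only from probe sets with 1 symbol, and BGLAP was left out where lists were read at 1 probe set per gene. The 10 genes and the 13 other lists were chosen with earlier results of these data known. Named genes of other lists were those called, and the 2 of smallest p per list and comparison. Genes of like pattern were sought for the osteoblast probe sets of smallest F test p and largest SD. Correlations used 100000 permutations.

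In simulated data of independent noise, with 200 of 22215 probe sets shifted between adult and fetal groups, the test called 89.5% of those shifted by 1 log2 unit and 99.0% of those shifted by 2. The shifts were full ones on the deposited scale, in probe sets of any brightness. These rates therefore do not hold for changes of dim probe sets, which that scale compresses. Nor can the rates be carried over to bright probe sets. The 200 true shifts loosen the adjusted cutoff, whereas the data gave 29 calls between adult and fetal arrays. The titles share replicate numbers. Deviations from group means of adult and infant arrays of 1 number correlated at 0.145, 0.131 and 0.204 over probe sets, all over 0.1, whereas those of adult and fetal arrays lay between -0.096 and 0.068 and those of infant and fetal arrays between 0.008 and 0.275. Alternatives were quantile normalization, median centring, subtraction of the 1st percentile with a floor of 16, leaving out dim probe sets, fitting only the groups compared, trend and robust moderation, the replicate block, each array left out, gestation day 120 alone as the fetal group, and adult arrays 1 and 2 left out.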

Additional observations from a re-analysis of the deposited data

Results flagged for a closer look

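Within groups of 4 arrays, a single value stood far from the other 3 in 4 of 32 groups tested by Dixon's criterion, of which chance gives about 1 in 20. That rate assumes independent values without ties. Equal values occurred in 9 of the 16 osteoblast probe sets, and some genes have several probe sets, so the count cannot be read as an excess. RUNX2 221282_x_at read 7.61 on the log2 scale in infant array 1, against 7.13, 7.21 and 7.19 in the other infant arrays. The same probe set read 7.13 in fetal array 2, against 7.24, 7.24 and 7.23 in the other fetal arrays. RUNX2 221283_at read 7.44 in infant array 2, against 7.64, 7.64 and 7.62. IBSP read 7.22 in infant array 1, against 7.35, 7.36 and 7.36.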

How the results depend on the processing

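No osteoblast probe set passed under any of the 20 alternatives, and the smallest adjusted p was 0.120, for MSX2 210319_x_at between adult and fetal arrays without adult array 3. Leaving out dim probe sets kept only 6 of the 16, and MSX2 210319_x_at was not tested there. Of 898 values of the 48 differences under the alternatives, 852 kept their sign and 46 changed it, in 21 of the 48 differences. None of the 46 was called, their size was at most 0.37, and those 21 differences have no settled direction. The adult-to-fetal differences of MSX2 210319_x_at and DLX5 kept their signs, at 0.28 to 0.47 and -0.47 to -0.21 with 1 array left out, and at 0.16 and -0.56 with adult arrays 1 and 2 left out. The cause of the changes below was not tested.

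Leaving out adult arrays 1 and 2 left adult array 3 as the only adult array, the one apart in XIST and RPS4Y1. Adult minus fetal then became -0.21 for SPP1, 0.015 for IBSP, -0.016 for SPARC 212667_at, and 0.37 and 0.097 for TNFRSF11B 204932_at and 204933_s_at. Adult minus infant became -0.19 for SPP1 and 0.086 for IBSP. With gestation day 120 alone as the fetal group, adult minus fetal became -0.038 for RUNX2 221283_at, -0.072 for SPP1 and 0.10 for TNFRSF11B 204932_at, and infant minus fetal became 0.056 for SPARC 200665_s_at and 0.022 for TNFRSF11B 204932_at. With the replicate block TNFRSF11B 204932_at became 0.0090 for adult minus fetal and IBSP 0.0060 for adult minus infant, and the block changed no call of an osteoblast probe set. With the low percentile subtracted TNFRSF11B 204932_at became 0.055 for adult minus fetal, and with quantile normalization 204933_s_at became -0.00025 for adult minus infant.

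With 1 array left out, adult minus fetal ranged from -0.034 to 0.081 for RUNX2 221283_at, -0.085 to 0.25 for SPP1, -0.20 to 0.14 for BGLAP and -0.24 to 0.12 for TNFRSF11B 204932_at. Adult minus infant ranged from -0.022 to 0.23 for RUNX2 221282_x_at, -0.069 to 0.27 for SPP1, -0.096 to 0.063 for IBSP, -0.32 to 0.019 for BGLAP, -0.18 to 0.028 for DLX5, -0.12 to 0.23 for TNFRSF11B 204932_at and -0.086 to 0.14 for 204933_s_at. Infant minus fetal ranged from -0.025 to 0.11 for RUNX2 216994_s_at, -0.037 to 0.12 for 221282_x_at, -0.14 to 0.014 for ALPL, -0.14 to 0.14 for SPP1, -0.083 to 0.083 for SPARC 200665_s_at and -0.050 to 0.29 for MSX2 205555_s_at.

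Over all probe sets the count called between adult and fetal arrays, 29, was 3 with the low percentile subtracted, 16 with only these groups, 221 with the replicate block and 44 with adult arrays 1 and 2 left out. Leaving out 1 array gave 153 (adult array 3), 120 (fetal array 4), 14 (infant array 2), 9 (fetal array 3), 7 (fetal array 1) and 4 (each of adult array 1, adult array 2 and fetal array 2). Between adult and infant arrays the count of 4 was 0 with the low percentile subtracted, 2 with only these groups, 8 with trend and robust moderation, 9 with the replicate block and 44 with adult arrays 1 and 2 left out, and leaving out 1 array gave 55 (adult array 3), 2 (fetal array 1) and 0 (adult array 1 or infant array 3). Between infant and fetal arrays the count of 0 was 1 with dim probe sets left out, 2 with the replicate block and 5 with gestation day 120 alone, and leaving out 1 array gave 21 (fetal array 4), 4 (infant array 3), 3 (adult array 3) and otherwise 0. For any difference the count of 8 was 2 with the low percentile subtracted, 25 with trend and robust moderation, 101 with the replicate block, 16 with gestation day 120 alone and 28 with adult arrays 1 and 2 left out, and leaving out 1 array gave 95 (adult array 3), 67 (fetal array 4), 18 (infant array 3), 15 (infant array 4), 5 (each of fetal arrays 1 to 3), 4 (adult array 2) and 2 (adult array 1). For newborn against gestation day 120 the count of 0 became 2 without fetal array 3. The counts with adult arrays 1 and 2 left out rest on adult array 3 alone. The block was fitted over all groups, although only the numbers of adult and infant arrays met the limit for pairing. All osteoblast probe sets but those of SPARC lay at or below percentile 60.1 of brightness, most of them below the median, which limits what these arrays can show.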

Other observations

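Genes of the other stromal fate, fat, were also read. CFD, adipsin, had a mean of 7.74 ± 0.14 in infant arrays (SD, n = 4), beside 7.16 ± 0.17 in fetal arrays (SD, n = 4) and 7.23 ± 0.10 in adult arrays (SD, n = 3). The infant arrays lay above all others, a pattern not counted over all probe sets. The CFD differences of 0.58 for infant minus fetal and -0.51 for adult minus infant did not pass over all probe sets (limma adjusted p = 0.197 and 0.329). PPARG, the regulator of fat cell formation, differed by 0.45 between infant and fetal arrays (limma adjusted p = 0.666). Of 8 adipocyte markers 0 passed in any comparison of age groups.

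Of 10 macrophage and leukocyte markers 0 passed in any comparison of age groups, and between adult and fetal arrays 6 were higher and 4 lower, with a median of 0.03. FCER1G, a signalling subunit of Fc receptors in myeloid cells, read 8.88 ± 0.40 in adult arrays (SD, n = 3) and 8.07 ± 0.35 in fetal arrays (SD, n = 4), with overlap, a difference of 0.81 that did not pass (limma adjusted p = 0.166). CD163, a scavenger receptor of macrophages, differed by -0.28 at its brightest probe set (limma adjusted p = 0.457) and by 0.32 and 0.14 at its others. The chondrocyte matrix gene ACAN spread widely within groups, between 8.52 and 12.51 in adult and between 9.88 and 12.59 in fetal arrays (limma adjusted p = 0.732).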
